A study of Mus musculus with 12 samples.

Results

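The 9 genes described here encode proteins of the sarcomeric M-band and the myosin-binding proteins: *Myom1*, *Myom2*, *Myom3*, *Mybpc1*, *Mybpc2*, *Mybpc3*, *Mybphl*, *Ttn* and *Obsl1*, out of 54658 gene names counted. They were picked by name, and the list was chosen on the difference between iNICD and control LA in these same libraries, so their values in that comparison are a description of the selected genes and not a test of them. The libraries came from the LA of 6 iNICD mice and 6 littermate controls on a mixed background, with 1 library per mouse. iNICD mice carried *αMHC-rtTA* together with *tetO_NICD*, so that the intracellular domain of Notch was expressed in cardiomyocytes under doxycycline, whereas controls carried *αMHC-rtTA* without the responder. All 12 animals, aged 2 to 3 months, ate doxycycline chow for 3 weeks with no washout. Males numbered 2 of the 6 controls and 3 of the 6 iNICD mice. The tissue was sequenced in bulk, so fewer cells of a type and less RNA per cell cannot be told apart.

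The M-band lies at the centre of the sarcomere, where it holds neighbouring myosin filaments in register. The myomesins (*Myom1*, *Myom2* and *Myom3*) link the filaments, titin (*Ttn*) reaches them from the Z-disc, and obscurin-like 1 (*Obsl1*) binds both titin and myomesin. The myosin-binding proteins C sit beside the M-band, on the bridge-bearing part of the filament, where they limit how readily myosin heads meet actin. *Mybpc3* encodes the cardiac form, *Mybpc1* and *Mybpc2* the slow and fast skeletal forms, and *Mybphl* a shorter relative found mainly in atria and the conduction system.

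Of these genes, 8 had an entry among the RefSeq promoters used here (GRCm38.p6), and the 250 bases before each start were searched on both strands for 6 motifs. Recognition letters for MEF2, a cardiac and skeletal muscle transcription factor, were found before *Myom3*, *Mybpc3* and *Ttn*, that is 3 of 8 members and 2.92% of all 32851 promoters. The 3 sequences are shown because the first 2 genes were the members with the highest fold changes between iNICD and control, whereas *Ttn* was level between the groups. They are written 5′ to 3′ on the gene's strand, with the MEF2 match in capitals.

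*Myom3*, chr4:135759465-135759714, plus strand: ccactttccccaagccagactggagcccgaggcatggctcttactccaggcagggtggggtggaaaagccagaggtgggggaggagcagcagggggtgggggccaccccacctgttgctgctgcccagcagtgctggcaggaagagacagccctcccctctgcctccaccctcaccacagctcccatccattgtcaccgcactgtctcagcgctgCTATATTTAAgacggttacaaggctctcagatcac

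*Mybpc3*, chr2:91117894-91118143, plus strand: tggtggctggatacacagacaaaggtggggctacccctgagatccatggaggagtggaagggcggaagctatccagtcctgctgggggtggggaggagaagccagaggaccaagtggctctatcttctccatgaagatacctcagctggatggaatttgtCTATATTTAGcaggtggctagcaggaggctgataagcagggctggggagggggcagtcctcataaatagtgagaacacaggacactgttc

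*Ttn*, chr2:76982548-76982797, minus strand: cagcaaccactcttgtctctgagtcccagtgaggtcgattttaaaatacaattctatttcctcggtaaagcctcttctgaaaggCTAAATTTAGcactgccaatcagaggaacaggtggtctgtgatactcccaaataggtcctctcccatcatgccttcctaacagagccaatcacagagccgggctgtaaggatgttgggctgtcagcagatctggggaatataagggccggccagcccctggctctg

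The match ended 26 bases before the start in *Myom3*, 81 bases before it in *Mybpc3* and 157 bases before it in *Ttn*. The core bound by RBPJ, the DNA-binding partner of NICD (TGGGAA), occurred in 21.6% of all promoters and in 0 of the 8 members. The E-box of the Notch-induced HEY factors (CACGTG) occurred in 6.02% and in 0 members. The N-box of HES repressors (CACNAG) occurred in 36.7% and in 3 members, *Mybpc1*, *Mybpc2* and *Mybphl*. The M-CAT element of muscle promoters (CATTCC) occurred in 12.6% and in *Mybpc2* alone of the members, and the SRF CArG box in 1.47% and in *Myom1* alone. The *Myom1* window, chr17:71019307-71019556, lay inside the annotated gene, which spans 71002633 to 71126856 on the plus strand. No searched match overlapped another in these 8 windows. A match describes letters in these windows, and no binding was measured.

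The libraries held from 21432632 to 27182038 counts. *Notch1*, whose reads combine the transgene and the endogenous gene, lay at 108 to 131 normalized CPM in the controls and at 2975 to 4077 in the iNICD libraries. Normalized CPM are counts scaled to the library total and corrected by the TMM method. The male control 5 stood apart on the first principal component, at -77.4 against -20.2 to 7.98 for the other controls, and it was the highest or lowest control for 6 of the 8 detected members, all but *Mybpc3* and *Obsl1*. Mitochondrial genes took 7.52% to 9.59% of counts in controls and 9.60% to 11.2% in iNICD, and their part in the results below was not tested. Without mitochondrial genes the same numbers of members were called in each direction.

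The largest difference among the 9 genes was in *Myom3*, the myomesin of intermediate and slow skeletal fibres. It lay at 6.79, 6.90, 5.67, 5.29, 4.45 and 9.72 normalized CPM in controls 1 to 6, and at 79.4, 86.8, 71.5, 118, 89.2 and 74.6 in iNICD 1 to 6. Every iNICD library was above every control, and iNICD 4 was the highest. The means were 6.47 ± 1.84 and 86.6 ± 16.8 (SD, n = 6 each), a 13.4-fold difference (log2 fold change 3.74, 95% interval 3.33 to 4.15). Counts behind these values ran from 95 to 3112 per library.

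*Myom1*, the myomesin of all striated muscle, lay at 1207, 1607, 1264, 1269, 1932 and 1334 normalized CPM in controls and at 1592, 1553, 1585, 1738, 1837 and 1537 in iNICD. The groups overlapped, since controls 2 and 5 reached into or above the iNICD values. The log2 fold change was 0.19 (95% interval -0.06 to 0.44), and 0.29 without control 5, neither past the threshold. The gene shares 207 exon bases with *Myl12a* on the opposite strand, and the strand setting of the counting was not stated.

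*Myom2*, which encodes M-protein, lay at 1483, 1446, 1581, 1423, 1411 and 1713 normalized CPM in controls and at 1723, 1615, 1727, 1658, 1484 and 1591 in iNICD. Controls 3 and 6 were within the iNICD range, and the log2 fold change was 0.11 (95% interval -0.04 to 0.26). Among the myomesins, compared per kilobase of exon, *Myom3* made up 0.348% ± 0.0958 of the summed level in controls and 4.02% ± 0.677 in iNICD (SD, n = 6 each). The share of *Myom1* was 44.2% ± 5.59 and 44.1% ± 2.57, and that of *Myom2* 55.5% ± 5.53 and 51.9% ± 2.89. *Myom3* thus stayed a small part of the myomesin transcripts in both groups.

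*Mybpc3*, the cardiac myosin-binding protein C, lay at 1949, 2333, 1992, 2140.4, 2178 and 2530.1 normalized CPM in controls and at 3439, 3697, 3950.1, 5329, 3797 and 4141 in iNICD. The groups did not overlap, and iNICD 4 again had the highest value. The means were 2187 ± 217 and 4059 ± 666 (SD, n = 6 each), a 1.86-fold difference (log2 fold change 0.89, 95% interval 0.65 to 1.13).

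*Mybphl* lay at 1031, 947, 991, 1067, 813 and 1207 normalized CPM in controls and at 739, 629, 762, 773, 845 and 892 in iNICD. The overlap came from control 5, which was below iNICD 5 and 6. The log2 fold change was -0.38 (95% interval -0.61 to -0.16) and did not pass the threshold, although without control 5 it was -0.44 and did. The gene was called in 7 of 24 alternative fits. With all libraries kept, DESeq2 (adjusted p = 0.00479) and edgeR's exact test (adjusted p = 0.0280) called it. So did edgeR's quasi-likelihood test with RLE normalization (adjusted p = 0.0496) or with sex as a covariate (adjusted p = 0.0390).

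The order of these 2 genes differed between the groups. Per kilobase of exon, *Mybphl* was at 1.51 ± 0.197 times the level of *Mybpc3* in controls (range 1.22 to 1.72) and at 0.631 ± 0.0995 times in iNICD (range 0.474 to 0.726, SD, n = 6 each). All 6 controls had more *Mybphl* than *Mybpc3*, and 0 of 6 iNICD libraries did, control 5 included. In the summed level per kilobase of the 4 myosin-binding protein members and *Mybph*, *Mybpc3* took 39.9% ± 3.23 in controls and 61.4% ± 3.92 in iNICD. *Mybphl* took 59.8% ± 3.33 and 38.4% ± 3.87. These ratios combine values that were known when the genes were chosen, and they carry no test.

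*Mybpc2*, the fast skeletal form, lay at 10.9, 16.2, 9.85, 11.6, 18.0 and 9.02 normalized CPM in controls and at 4.18, 6.70, 7.30, 3.56, 6.65 and 9.03 in iNICD. The ranges met at control 6 and iNICD 6, and the other 5 iNICD libraries were below every control. The means were 12.6 ± 3.66 and 6.24 ± 2.03 (SD, n = 6 each), with a log2 fold change of -1.02 (95% interval -1.53 to -0.50) that passed the threshold. The call was lost when any of 8 single libraries was left out, namely controls 1, 2 and 4 and iNICD 1 to 5, with log2 fold changes of -1.07 to -0.90 in those fits. *Mybpc1*, the slow skeletal form, had 0 counts in all 12 libraries, which allows at most 0.109 to 0.140 normalized CPM per library when 3 counts are taken as the limit (counting error only).

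*Obsl1* lay at 302, 244, 309, 331, 286 and 317 normalized CPM in controls and at 179, 170.2, 203, 242, 208 and 223 in iNICD. The groups did not overlap, although control 2 and iNICD 4 lay next to each other. The means were 298 ± 30.4 and 204 ± 26.7 (SD, n = 6 each), with a log2 fold change of -0.54 (95% interval -0.75 to -0.34).

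*Ttn* lay at 3979, 4837, 4381, 3692, 5277 and 4252 normalized CPM in controls and at 3859, 4212, 3817, 4375, 4253 and 3849 in iNICD. The iNICD values fell wholly within the control range, and the log2 fold change was -0.12 (95% interval -0.32 to 0.09).

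**Figure D1:**
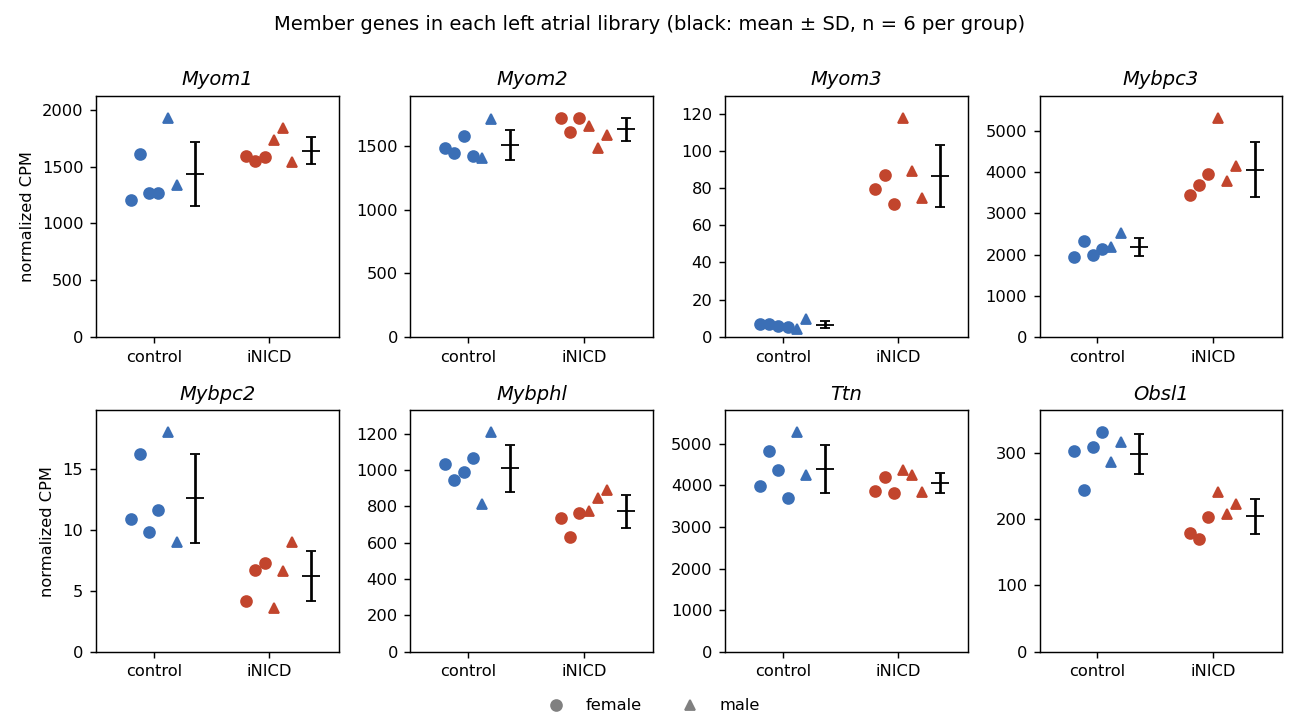
Each panel plots the normalized CPM (vertical axis, from 0) of 1 gene in the 6 control and 6 iNICD libraries, circles for females and triangles for males, with the group mean and SD in black. The groups are apart for *Myom3*, *Mybpc3* and *Obsl1*, meet at 9.02 and 9.03 for *Mybpc2*, and overlap for the other genes.

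Over the 9 genes, 8 passed the expression filter (over 1 CPM in 6 libraries or more), of which 2 were called higher in iNICD (*Myom3* and *Mybpc3*), 2 were called lower (*Mybpc2* and *Obsl1*) and 4 were not called. Of all 13541 tested genes, 2.78% were called higher, 1.34% lower and 4.12% in either direction, and the 2 groups did not overlap in 3.83%. The genes were chosen on this contrast, so nothing is read from these shares. The median log2 fold change was -0.0016 over the 8 genes and -0.0061 over all tested genes. The genes nearest the threshold were *Mybpc2* inside it and *Mybphl* outside it. Together the 9 genes took 1.07% of all counts in controls and 1.25% in iNICD.

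Per kilobase of exon, the order of mean levels in controls was *Mybphl* (791 normalized CPM per kilobase), *Mybpc3* (525), *Myom2* (170.5), *Myom1* (137), *Ttn* (37.7), *Obsl1* (35.2), *Mybpc2* (3.49), *Myom3* (1.07) and *Mybpc1* (0). The ranges of *Myom2* and *Myom1*, and of *Ttn* and *Obsl1*, overlapped among controls, whereas those of other neighbours did not. In the iNICD libraries, neighbours in 2 places were exchanged: *Mybpc3* (975) came before *Mybphl* (606), and *Myom3* (14.3) before *Mybpc2* (1.73). *Ttn* (34.8) and *Obsl1* (24.1) no longer overlapped there. *Ttn* is very long, with 116825 merged exon bases, and a mean over all of its exons hides differences between isoforms.

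**Figure D2:**
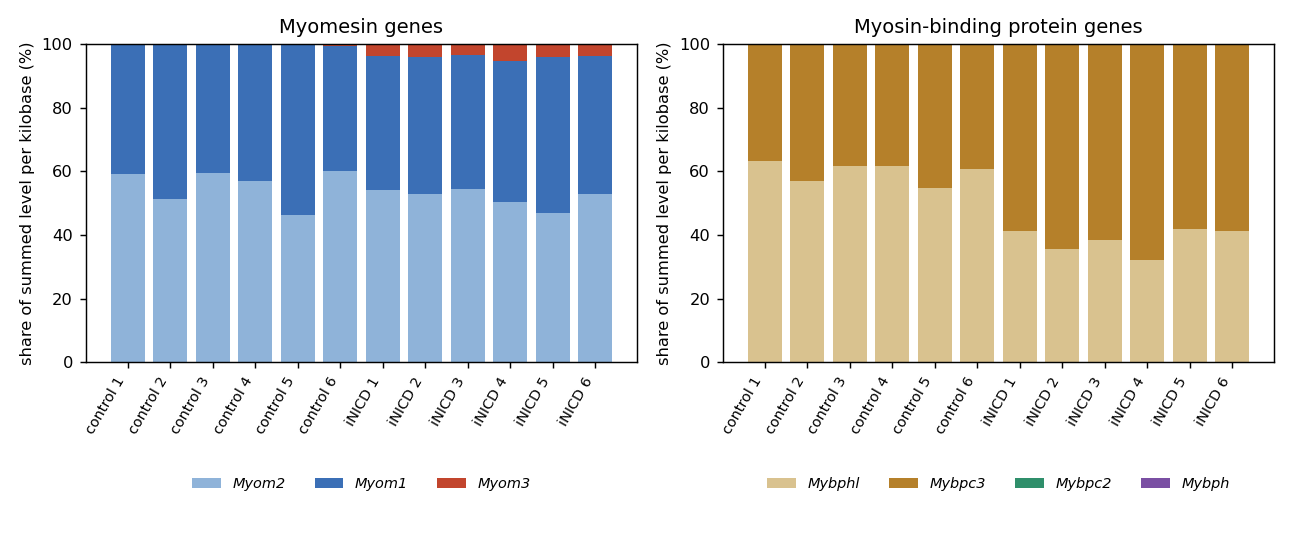
Stacked bars give the share (percent) of each gene in the summed level per kilobase of its family in every library, with the myomesins on the left and the myosin-binding proteins on the right. *Myom3* forms a visible band (mean 4.02%) in the iNICD bars, where the larger share also passes from *Mybphl* to *Mybpc3* (61.4%).

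Sex was not used to choose the genes, and it was tested. The difference between iNICD and control did not depend detectably on sex for any of the 8 genes (interaction in edgeR, lowest adjusted p = 0.916, background 0% of 13541 genes called, 501 at an unadjusted p under 0.05). At an unadjusted p under 0.05 there were 0 of the 8, and DESeq2 also called 0. The lowest adjusted p in edgeR was 0.0606 without control 6, which left control 5 as the lone male control, and 0.753 or more in the other 11 fits that left out 1 library. For *Myom3* the log2 fold change was 3.68 ± 0.12 (SE) in females and 3.71 ± 0.43 in males, with an interaction of 0.04 (95% interval -0.76 to 0.85). For *Mybpc3* it was 0.81 ± 0.09 and 0.89 ± 0.20, with an interval of -0.34 to 0.53. For *Obsl1*, which had the lowest unadjusted interaction p of 0.159, it was -0.69 ± 0.12 in females and -0.44 ± 0.12 in males, with an interval of -0.12 to 0.64.

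The intervals show that differences between the sexes of the size of the *Obsl1* or *Mybphl* effect itself could be missed with 2 male controls. *Mybphl* had a log2 fold change of -0.51 ± 0.09 in females and -0.29 ± 0.20 in males, and *Mybpc2* -1.0 ± 0.24 and -1.09 ± 0.48. *Myom1* (0.24 ± 0.11 and 0.05 ± 0.20), *Myom2* (0.19 ± 0.07 and -5.62e-06 ± 0.14) and *Ttn* (-0.09 ± 0.11 and -0.21 ± 0.16) had small values in both sexes. Within males alone, with 2 control and 3 iNICD libraries, 0 of the genes were called in edgeR and 3 (*Myom3*, *Mybpc3* and *Obsl1*) had an unadjusted p under 0.05.

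**Figure D3:**
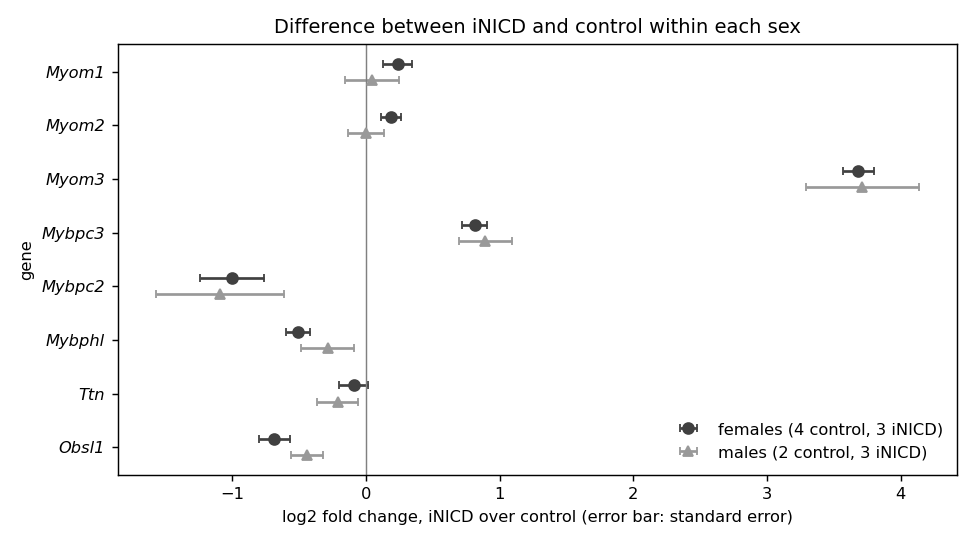
The log2 fold change of iNICD over control (horizontal axis) with its standard error is plotted for each gene in females (4 control, 3 iNICD) and in males (2 control, 3 iNICD). The male and female estimates of *Myom3* (3.71 and 3.68) and *Mybpc3* (0.89 and 0.81) lie within each other's error bars.

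Levels did not differ detectably between males and females with genotype in the model either. None of the 8 genes was called, against 0.288% of all tested genes, and the lowest adjusted p in edgeR was 0.342, for *Mybpc3* (log2 0.21 ± 0.09 higher in males, SE, unadjusted p = 0.0441), the single gene of the 8 with an unadjusted p under 0.05, beside 1883 of all 13541 tested genes. DESeq2 called 0. Control means of *Mybpc3* were 2104 normalized CPM in females and 2354 in males, and iNICD means were 3695 and 4422.

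Within the 6 iNICD libraries the genes were set against *Notch1*, as the readout of the transgene. None of 8 relations held after adjustment over the 8 (two-sided exact permutation tests, lowest adjusted p = 0.467). *Myom3* gave the highest Pearson r, 0.706 (exact permutation p = 0.110), with Spearman rho of 0.257 (exact permutation p = 0.658). Without iNICD 2 and 4, the libraries farthest from the median *Notch1*, r was -0.706, so the relation rested on those libraries. *Mybphl* gave the lowest r, -0.629 (exact permutation p = 0.197, rho = -0.543 with exact permutation p = 0.297), and -0.821 without these libraries.

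Once each group's mean was subtracted, 28 pairs of the 8 genes were compared over the 12 libraries, and 0 passed the threshold by permutation of libraries within groups (4 at an unadjusted p under 0.05). The strongest was *Myom1* with *Ttn*, whose proteins bind each other in the M-band (r = 0.863, permutation p = 0.00243, adjusted p = 0.0680, rho = 0.783). Its r was 0.687 without the 2 libraries farthest from the median *Myom1* and 0.754 without control 5. *Mybphl* and *Obsl1* gave r = 0.631 (rho = 0.734, adjusted permutation p = 0.269) and 0.702 without control 5. *Myom3* and *Mybpc3*, the members with higher values in iNICD, gave r = 0.593 (rho = 0.280, adjusted permutation p = 0.269), and -0.197 without the 2 farthest libraries. *Myom3* and *Mybpc2*, whose group differences had opposite signs, gave the lowest r of -0.608 (rho = -0.531, adjusted permutation p = 0.269), and -0.266 without the 2 farthest.

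**Figure D4:**
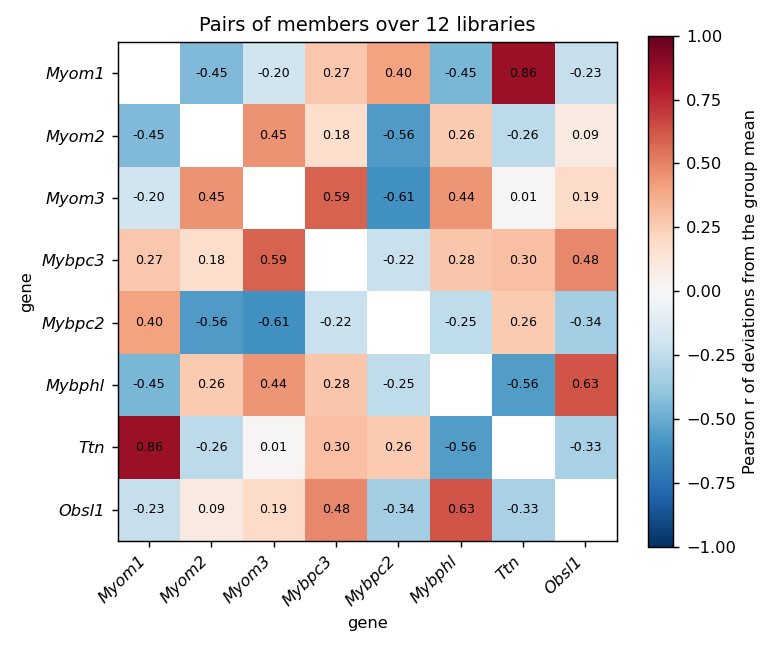
The matrix gives Pearson r, from -1 (blue) to 1 (red), of deviations from the group mean of log2 normalized CPM for each pair of 8 genes over 12 libraries. *Myom1* with *Ttn* (0.86) is the darkest cell, and the lowest is *Myom3* with *Mybpc2* (-0.61).

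Across all tested genes outside the list, the deviations most like those of *Myom3* over the 12 libraries were in *Stam2* (r = 0.901), *Lrrc8e* (0.888) and *Tgfbrap1* (0.868). *Lrrc8e*, a subunit of a volume-regulated anion channel, also differed between groups, with means of 0.675 and 59.4 normalized CPM, whereas *Stam2* and *Tgfbrap1* had log2 fold changes of 0.02 and 0.03. Among those most like *Mybpc3* were *Wdr83* (0.865) and *Lias* (0.853). Among those most like *Mybpc2* were *Slc22a4* (0.917) and *Mfsd10* (0.884). Those most like *Obsl1* were *Csdc2* (0.939), *Mtfp1* (0.932) and *Ubap2* (0.930). Each r was picked as the highest over all tested genes in the same libraries, which share their depth and composition, and it is given as a description. Without control 5 these 10 values lay between 0.822 and 0.940.

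Other genes of the same protein neighbourhood were counted from lists, with adjusted p from edgeR over all 13541 genes. Of the 5 tested family relatives 1 rose, *Mybph*, the myosin-binding protein H gene, from 0.506 ± 0.391 to 2.56 ± 1.43 normalized CPM (SD, n = 6 each, log2 fold change 2.34 ± 0.52 SE, adjusted p = 0.0236). Its counts were 2 to 26 in controls and 17 to 111 in iNICD, so the groups overlapped at control 5 and iNICD 2. It passed the filter through 5 iNICD libraries and control 5, so its entry into the test depended on its level in iNICD, and its count among the relatives is no support for a difference of the list. Of the 12 fits that left out 1 library it was tested in 6, and the call was lost in those without control 1 or control 4. *Speg*, *Mylk* and *Mylk3* did not pass, with log2 fold changes of -0.29, -0.07 and -0.04, and *Igfn1* was too low to test.

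Of 19 M-band partners, 4 had an unadjusted p under 0.05 in edgeR and 3 were called by DESeq2. After adjustment in edgeR 1 rose and 18 did not pass the test (median log2 fold change -0.06). The gene was *Fhl2*, a LIM protein that binds titin in the M-band and N2B regions, with 84.3 ± 43.2 normalized CPM in controls and 189.6 ± 53.6 in iNICD (log2 fold change 1.17 ± 0.30 SE, adjusted p = 0.0461 in edgeR). Its groups overlapped (45.3 to 166 and 101 to 255), and the call was lost in 10 of 12 fits that left out 1 library, control 5 among them (1.20, adjusted p = 0.0520). *Cul7* and *Ccdc8*, which form a complex with *Obsl1* outside the sarcomere, had log2 fold changes of -0.06 and 0.04.

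Of 13 tested titin partners outside the M-band, 0 passed (median log2 fold change -0.25), and likewise 0 of 10 kinases and phosphatases that act on cardiac myosin-binding protein C (median 0.05). At an unadjusted p under 0.05 edgeR counted 1 of the titin partners and 0 of the enzymes, and DESeq2 called 0 and 0. The thick filament list held 10 tested genes, of which 2 fell, and they were the atrial light chains *Myl4* (7654 ± 464 to 4547 ± 516 normalized CPM, log2 fold change -0.75 ± 0.09 SE, adjusted p = 3.2e-04) and *Myl7* (4597 ± 424 to 3160 ± 669, -0.54 ± 0.13, adjusted p = 0.0367). The *Myl7* call was lost in 8 of 12 fits without 1 library. *Myh6*, the main atrial heavy chain, was at 33643 ± 903 and 32890 ± 2034 normalized CPM (log2 fold change -0.03).

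**Figure D5:**
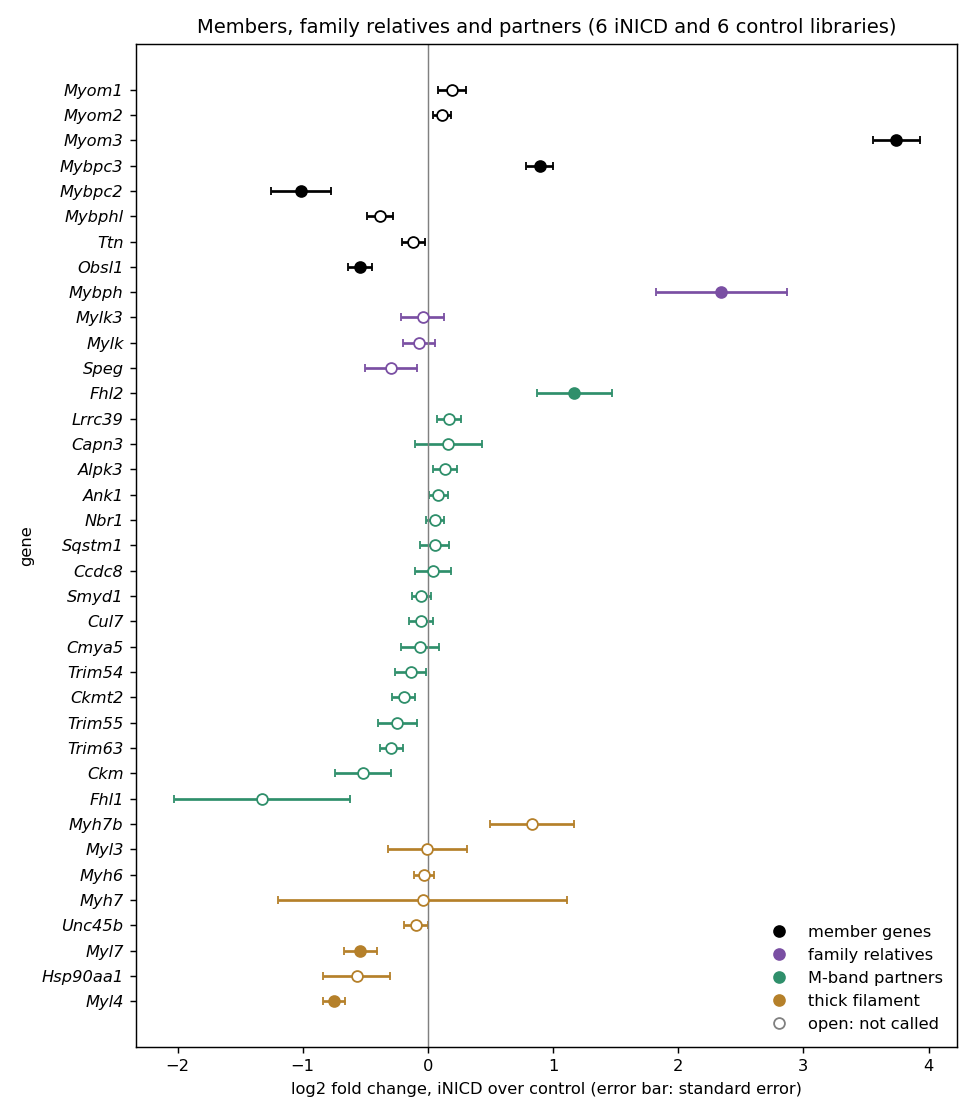
The log2 fold change of iNICD over control (horizontal axis, points, with standard errors as bars) is shown for the 8 detected genes, and for the family relatives, M-band partners and thick filament genes reported here, filled where called. Outside the 4 called members, filled points are *Mybph* (2.34), *Fhl2* (1.17), *Myl7* (-0.54) and *Myl4* (-0.75).

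Markers of cell types and other muscles were counted beside these results. Among 11 tested skeletal muscle genes 2 rose, *Tnni2* (1.11 ± 0.856 to 3.53 ± 1.20 normalized CPM, log2 fold change 1.68 ± 0.39 SE, adjusted p = 0.0312 in edgeR) and *Myh8* (1.66 ± 0.924 to 4.61 ± 1.30, 1.47 ± 0.33, adjusted p = 0.0232). Their 6 iNICD libraries were enough to meet the filter, at 2.38 to 5.20 for *Tnni2* and 2.88 to 6.10 for *Myh8*. Controls ran from 0.414 to 2.81 and from 0.655 to 3.39, so the groups overlapped. Controls alone did not meet the filter, so entry into the test depended on the level in iNICD. The count of 2 is thus no support for a difference of the list. The *Tnni2* call was lost in 9 and the *Myh8* call in 6 of the 12 fits without 1 library. The whole list of 20 summed to 141 to 301 normalized CPM in controls (ending at 231 without control 5) and 167 to 390.1 in iNICD. *Myl1* was the largest part of this sum, with means of 133 in controls and 160 in iNICD (log2 fold change 0.27, not called). *Myod1* was at 0 in every library, and the fast heavy chains *Myh1*, *Myh2* and *Myh4* stayed at 0.455 or less. *Myog*, the other myogenic regulator of the list, was too low for the filter, with 0.0411 ± 0.0454 normalized CPM in controls and 0.449 ± 0.234 in iNICD (SD, n = 6 each) from 0 to 18 counts per library. With no filter on low counts, 3 genes of the list were called higher. Of the atrial cardiomyocyte markers 4 of 6 fell, *Myl4*, *Myl7*, *Nppa* and *Sln*, and the summed level ranged from 34342 to 44082 in controls and from 9362 to 16673 in iNICD. *Nppa* was the largest part of this sum in controls (means of 24221 and 4821 normalized CPM in controls and iNICD), *Nr2f2* had a log2 fold change of 0.01, and without control 5 the control range ended at 39374. Of 9 general cardiomyocyte markers 1 fell, *Tnnt2* (log2 fold change -0.44, adjusted p = 0.0153 in edgeR).

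The 3 tested ventricular markers gave 0 calls in edgeR and 0 in DESeq2 (0 at an unadjusted p under 0.05), *Irx4* was at 0 in all libraries, and *Myl2* was at 3.22 normalized CPM or less. *Myh7* ran from 17.8 to 2155 in controls and from 13.1 to 2230 in iNICD. Markers of fibroblasts (8 tested), endothelium (7), smooth muscle (6), leukocytes (6), mesothelium (4) and adipocytes (2) gave 0 calls in edgeR, with 1 of 33 at an unadjusted p under 0.05 and 0 called by DESeq2. The summed fibroblast level was 2828 to 4096 normalized CPM in controls and 2946 to 4760 in iNICD, and that of endothelium 966 to 1400 and 851 to 1123. Without control 5 the endothelium range in controls ended at 1169. Their part in the members' differences was not tested.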

How the data were processed

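RNA from 12 LA was depleted of ribosomal RNA and sequenced by the authors as stranded, single-end reads of 50 bases. The authors deposited raw counts for each gene name, without normalization, and a length in bases per name (their own unit), which equalled the merged exons in GENCODE M21 (GRCm38) for all 9 genes and was used for levels per kilobase. The submitters' processing notes name cutadapt, STAR 2.4.2a and featureCounts, and the study's methods also describe a TopHat2 and HTSeq route; the table does not name its counter.

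The 9 genes and the gene lists were chosen with earlier results of these data known. Groups, replicate numbers and sex came from titles and descriptions. The 13541 genes over 1 CPM in 6 or more libraries were compared with edgeR 4.0.16 (R 4.3.3) by the quasi-likelihood test, two-sided, with TMM normalization and Benjamini-Hochberg adjustment at 0.05; SE came from the F statistic. These steps were tested on simulated data. Correlations used exact permutation, or 1e+05 permutations within groups for pairs. Of each list, up to 5 called genes each way are named, with all members of lists of 5 or fewer, and the 3 genes most like each called member, apart from a few not reported here. Genes named for other reasons were picked after their values were seen.

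Alternatives were DESeq2 1.42.0, edgeR's exact test, RLE and upper-quartile normalization, 2 other filters, sex as a covariate, replicate blocks, each sex alone, no mitochondrial genes, TPM, and each library left out. Replicates were separate mice. Total counts per library set the counting error only. Other data of the study were not analysed here.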

Additional observations from a re-analysis of the deposited data

Results flagged for a closer look

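*Mybpc3* in iNICD 4 lay at 5329 normalized CPM, apart from the other 5 iNICD libraries at 3439 to 4141. The gap was 0.628 of the group's range, just above Dixon's 95% critical value for 6 samples. In 16 groups checked (8 genes in 2 groups), chance alone flags about 0.8. The log2 fold change of *Mybpc3* was 0.80 without this library and stayed past the threshold.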

How the results depend on the processing

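*Myom3*, *Mybpc3* and *Obsl1* were called in 23 of 24 alternatives, all but males only, with log2 fold changes of 3.63 to 3.89, 0.80 to 0.94 and -0.69 to -0.44. *Mybpc2* was called in 12 of 24 and *Mybphl* in 7. Higher calls among members numbered 2 in each fit without 1 library, and lower calls 1 to 3; males only gave 0 and 0. Higher pathway genes numbered 2, against 1 with sex as a covariate, 0 in females, 0 in males and 0 to 2 without 1 library (0 without control 5). Lower pathway genes numbered 2, against 4 by DESeq2, 5 with sex as a covariate, 0 in males and 1 to 2 without 1 library. For *Myom2* the log2 fold change in males was -5.62e-06. Of the correlations with *Notch1*, 4 changed sign without the 2 farthest libraries, to -0.706 (*Myom3*), -0.349 (*Mybpc3*), -0.825 (*Ttn*) and -0.621 (*Obsl1*). The cause of these changes was not tested. Sex tests gave 0 calls in each fit without 1 library (for sex, lowest adjusted p in edgeR 0.148, without control 5), and pair tests gave 0 without control 5. The interaction without control 6, which left control 5 as the lone male control, is given with the sex results. The order of mean levels per kilobase was kept with TPM, which cannot change the order of genes within a library and so is no check of it.

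The main fit did not treat same-numbered mice as pairs. Correlations of same-numbered deviations ran from -0.153 to 0.372 by title, over 0.1 in 4 of 6 pairs. Best correlation with their own number was seen in 3 of 6 controls and 2 of 6 iNICD libraries. These values do not settle whether the numbers pair the mice. The replicate block gave 2 members higher and 1 lower by title number and 2 and 2 by description number, which exchanges controls 4 and 5. *Mybpc2* was not called under either numbering (adjusted p = 0.0553 and 0.110 in edgeR), and the lower calls were *Obsl1* in both and *Mybphl* by description number; higher pathway genes numbered 1 and 0, and lower ones 2 and 2. Over all genes, 377 were called higher and 181 lower, against 615 and 444 by DESeq2, 491 and 279 by edgeR's exact test, 285 and 136 under the second block, 264 and 131 in females, 8 and 0 in males, and 252 to 486 and 90 to 310 without 1 library. The male fits had 2 controls. *Mybph* rests on 2 to 111 counts.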
